A study of Mus musculus with 15 samples.

Results

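The let-7 family of microRNAs (miRNAs) was described in Kupffer cells, the macrophages that reside in the mouse liver. Its members here are mmu-let-7a-5p, mmu-let-7b-5p, mmu-let-7c-5p, mmu-let-7d-5p, mmu-let-7f-5p, mmu-let-7g-5p, mmu-let-7i-5p and mmu-miR-98-5p, matched by name in the deposited tables and written below without the species prefix. They are 8 of the 248 miRNAs listed there, and let-7e was left out of this set. Small RNA was sequenced from ob/ob mice at 9 weeks (n = 3), wild-type C57BL/6J mice (wt) at 9 weeks (n = 4), ob/ob mice at 14 weeks (n = 4) and wt mice at 14 weeks (n = 4), and the comparison asks which miRNAs of these cells differ with obesity at each age. ob/ob mice carry a mutation that removes functional leptin, so they overeat and become obese and insulin resistant. No treatment is named in the labels, and the labels give neither the sex of the animals nor whether animals were pooled, nor the strain background of the ob/ob mice beyond that name.

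A miRNA guides the silencing complex to messenger RNAs through its seed, bases 2 to 8 from the 5′ end, and miRNAs with the same seed are expected to share most of their targets. let-7 miRNAs are among the best conserved in animals. They are low in early embryonic cells, where LIN28 binds the precursors of most members and blocks their processing, and they accumulate as cells differentiate. In metabolism they are known for repressing components of insulin and IGF signalling, and in macrophages for acting on Toll-like receptor and cytokine messages. The 5p arm is the guide strand of each let-7 hairpin, and the 3p arm is the passenger strand that is mostly degraded.

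The mature sequences show what the family shares and where members differ. They are given 5′ to 3′ as RefSeq lists them with GRCm38.p6, with the seed in capitals.
mmu-let-7a-5p: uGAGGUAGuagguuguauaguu
mmu-let-7b-5p: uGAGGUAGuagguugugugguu
mmu-let-7c-5p: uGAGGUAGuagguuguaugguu
mmu-let-7d-5p: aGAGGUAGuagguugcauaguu
mmu-let-7f-5p: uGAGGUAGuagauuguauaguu
mmu-let-7g-5p: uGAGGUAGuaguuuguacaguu
mmu-let-7i-5p: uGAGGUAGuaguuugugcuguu
mmu-miR-98-5p: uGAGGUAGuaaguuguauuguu

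All 8 members are 22 bases long and carry the seed GAGGUAG. Of the 218 listed miRNAs with a mature sequence in RefSeq, 9 carry this seed, the 8 members and let-7e-5p. Outside the seed the members differ from let-7a-5p at 1 to 4 positions, counted from 1 at the 5′ end and written with the let-7a-5p base first. let-7c-5p differs by A19G and let-7f-5p by G12A. let-7b-5p differs by A17G and A19G, and let-7d-5p by U1A and U16C, which makes it the member with another first base. let-7g-5p differs by G12U and U18C, and miR-98-5p by G11A and A19U. let-7i-5p is farthest from let-7a-5p, with G12U, A17G, U18C and A19U. Among the 28 pairs of members, 3 differ at 1 position and 8 at 2 positions, so a read with sequencing errors could be assigned to a relative. The sources used here do not say how the submitters assigned such reads, and the split of reads between close members is therefore uncertain.

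The 11 hairpins that give rise to the members lie at 7 places in the mouse genome (GRCm38), with the same coordinates in RefSeq and GENCODE. On chromosome 13, minus strand, Mirlet7d (48536012-48536114), Mirlet7f-1 (48537829-48537917) and Mirlet7a-1 (48538179-48538272) lie in exons of the long non-coding RNA 6720427I07Rik. Gaps of 1714 and 261 bases separate these 3 hairpins. On chromosome 15, plus strand, Mirlet7c-2 (85706603-85706697) and Mirlet7b (85707319-85707403) lie 621 bases apart in exons of Lncppara. On chromosome X, plus strand, Mirlet7f-2 (151912346-151912428) and Mir98 (151913214-151913321) lie 785 bases apart in introns of Huwe1. The remaining hairpins are Mirlet7a-2 on chromosome 9 (41536716-41536811, plus strand, intron of the non-coding 3110039I08Rik), Mirlet7g on chromosome 9 (106178840-106178927, plus strand, intron of Wdr82), Mirlet7i on chromosome 10 (122985640-122985724, minus strand, exon of the pseudogene transcript D630033A02Rik) and Mirlet7c-1 on chromosome 16 (77599657-77599750, plus strand, intron of Mir99ahg). let-7a-5p, let-7c-5p and let-7f-5p are each made from 2 hairpins at different places, and their values cannot be divided between them.

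The deposited values state no unit and were taken as reads per 1000000 reads (RPM), and the depths below rest on that. Depth is given in M (1 M is 1000000 reads). In each library every value above 0 was a whole multiple of 1 step within 0.1 reads, and the step implies 25.9 to 33.9 M reads in ob/ob and 13.4 to 22.8 M in wt at 9 weeks. At 14 weeks it implies 44.0 to 98.1 M reads in ob/ob and 9.08 to 39.0 M in wt, so the implied depth did not overlap between the genotypes at either age. Each member had at least 1971 reads in each library, so counting error is small for all of them. The listed miRNAs together made up 230785 to 250422 RPM in ob/ob and 297668 to 358621 RPM in wt at 9 weeks. At 14 weeks they made up 272978 to 333502 RPM in ob/ob and 317539 to 353829 RPM in 3 of the wt libraries. The exception was wt replicate 1 of 14 weeks, with 147387 RPM, and the calls at 14 weeks and the interaction are given with and without it. Because of these differences each comparison is given on the deposited scale and after median-ratio rescaling, which divides each library by the median of its miRNAs' ratios to their geometric mean over that age. Across all miRNAs tested the rescaling moved the median log2 fold change (ob/ob over wt) to 0.00 from -0.51 at 9 weeks and to 0.00 from 0.20 at 14 weeks.

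let-7f-5p was the most abundant member in each of the 4 groups, and let-7b-5p and miR-98-5p were the rarest pair. All members have the same length, so RPM values need no length correction, although adapter ligation is known to favour some sequences over others. At 9 weeks let-7f-5p averaged 16079 ± 3099 RPM in ob/ob (SD, n = 3) and 33927 ± 4279 RPM in wt (SD, n = 4). let-7a-5p, let-7c-5p and let-7i-5p came next in ob/ob at 4069, 3492 and 3064 RPM, and their libraries overlapped from one to the next. In wt the order was the same, with let-7a-5p and let-7c-5p at 7379.9 and 7314 RPM and overlapping, and let-7i-5p apart from them at 4029 RPM. let-7g-5p followed with 2147 RPM in ob/ob and 2559 RPM in wt, and let-7d-5p with 935 RPM in ob/ob and 2197 RPM in wt. At the low end ob/ob libraries had more miR-98-5p (454 RPM) than let-7b-5p (304 RPM) without overlap, while in wt let-7b-5p (602 RPM) stood above miR-98-5p (379 RPM) with overlap. The same exchange of the last ranks was present in the means at 14 weeks, where the libraries of both members overlapped in either genotype.

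**Figure D1:**
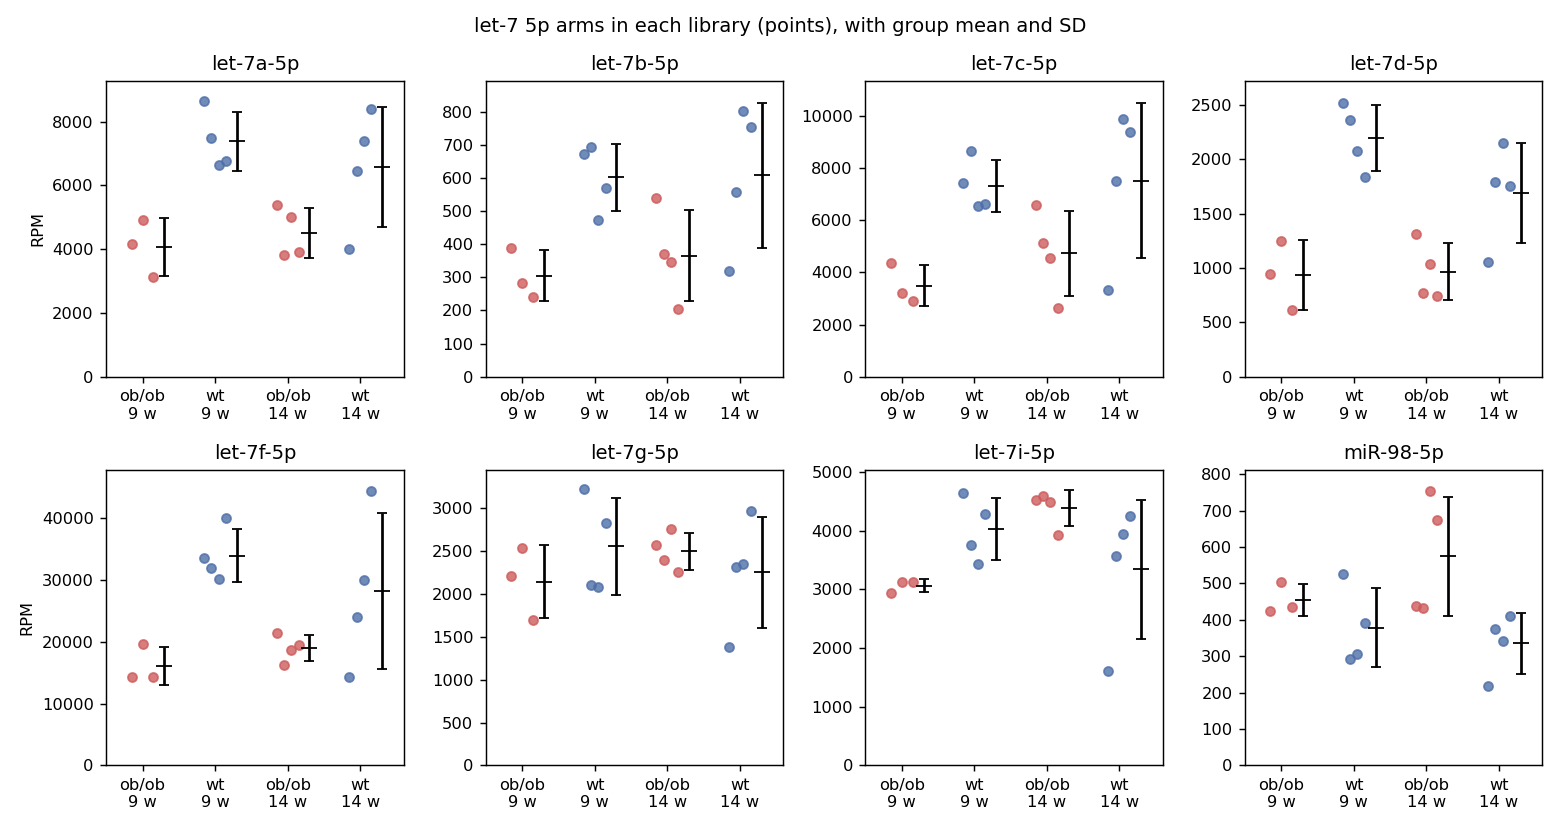
RPM of each let-7 member in each library (points; ob/ob red, wt blue), with the group mean (tick) and SD (bar), n = 3 for ob/ob at 9 weeks and n = 4 for the other groups, each panel on its own axis from 0. At 9 weeks the ob/ob points lie below the wt points for let-7a, let-7b, let-7c, let-7d, let-7f and let-7i, and at 14 weeks the first wt replicate is the lowest wt point in each panel.

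At 9 weeks let-7a-5p, let-7b-5p, let-7c-5p, let-7d-5p and let-7f-5p were lower in ob/ob Kupffer cells than in wt, at 41.1% to 54.5% of the wt level on the deposited scale. let-7g-5p, let-7i-5p and miR-98-5p did not pass the test. Of the 8 members, 5 were called lower and 0 higher (limma on log2(RPM + 0.5), adjusted p under 0.05 over all miRNAs tested). Of the 179 miRNAs tested, 32.4% were called lower and 5.03% higher, and the median log2 fold change was -0.94 over the members and -0.51 over all tested. In bulk RNA, fewer cells of a type and less RNA per cell cannot be told apart.

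let-7f-5p, which alone made up 52.5% ± 3.95 of the family in ob/ob (SD, n = 3) and 58.0% ± 3.71 in wt (SD, n = 4) at 9 weeks, had 14251, 19658 and 14328 RPM in the ob/ob libraries. The wt libraries had 33623, 32013, 30101 and 39972 RPM. The highest ob/ob library lay well below the lowest wt library, and the log2 fold change was -1.09 ± 0.18 (SE, limma adjusted p = 0.0050). let-7d-5p, the member with an A as first base, had 946, 1248 and 609.8 RPM in ob/ob, against 2518, 2361, 2072 and 1836 RPM in wt. Its change of -1.28 ± 0.26 on the log2 scale (SE, limma adjusted p = 0.0071) was the largest among the members on the deposited scale, and its libraries did not overlap.

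let-7c-5p, made from hairpins on chromosomes 15 and 16, had 4369, 3211 and 2896 RPM in ob/ob, against 7417, 8668, 6536 and 6634 RPM in wt. let-7a-5p, made from hairpins on chromosomes 13 and 9, had 4156, 4928 and 3122 RPM in ob/ob, against 8638, 7477, 6637 and 6768 RPM in wt. let-7b-5p, which shares the chromosome 15 place with 1 of the let-7c hairpins, had 389.9, 283 and 240.3 RPM in ob/ob, against 672, 693, 474 and 571 RPM in wt. None of these 3 members overlapped between the genotypes on the deposited scale. Their log2 fold changes were -1.08 ± 0.20, -0.88 ± 0.20 and -0.997 ± 0.23 (SE), with limma adjusted p of 0.0054, 0.0111 and 0.0120 in the same order.

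let-7i-5p, the member with the most differences from let-7a-5p, had 2939.6, 3131 and 3121 RPM in ob/ob, against 4638, 3763, 3432 and 4283 RPM in wt. Its libraries did not overlap, yet its change of -0.39 ± 0.16 on the log2 scale (SE, limma adjusted p = 0.0958) missed the threshold, with a 95% confidence interval of -0.76 to -0.01. let-7g-5p had 2210.5, 2534 and 1696 RPM in ob/ob, against 3227, 2101, 2077 and 2831 RPM in wt. Its libraries overlapped, and the log2 fold change was -0.25 ± 0.23 (SE, limma adjusted p = 0.421), with an interval of -0.77 to 0.28. miR-98-5p had 423, 504 and 436 RPM in ob/ob, against 525, 293, 305 and 392 RPM in wt. It was the member with a positive estimate, 0.30 ± 0.24 (SE, limma adjusted p = 0.355), and its libraries overlapped. On the deposited scale 6 of 8 members lay lower in ob/ob without overlap, against 41.3% of all miRNAs tested.

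After rescaling, the 9-week picture was smaller in size and partly different. let-7d-5p (log2 fold change -0.77 ± 0.23, SE, limma adjusted p = 0.0458) and let-7f-5p (-0.58 ± 0.16, limma adjusted p = 0.0371) were still called lower, against 10.2% of the 177 miRNAs tested. miR-98-5p was called higher at 0.81 ± 0.21 (SE, limma adjusted p = 0.0337), against 11.3% of those tested. With a correction for GC content on the rescaled values its estimate was 0.49 ± 0.20 (SE, limma adjusted p = 0.104) and it was no longer called. let-7a-5p (-0.37), let-7b-5p (-0.49) and let-7c-5p (-0.57) had adjusted p of 0.130, 0.119 and 0.0553 by limma, and let-7g-5p (0.26) and let-7i-5p (0.12) had estimates above 0 with adjusted p of 0.355 and 0.533. The median over the members was -0.43, against 0.00 over all tested. These rescaled calls depended on single libraries. That of let-7d-5p remained in 1 of 7 refits that left out 1 library and those of let-7f-5p and miR-98-5p in 2 of 7 each, with adjusted p up to 0.127.

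**Figure D2:**
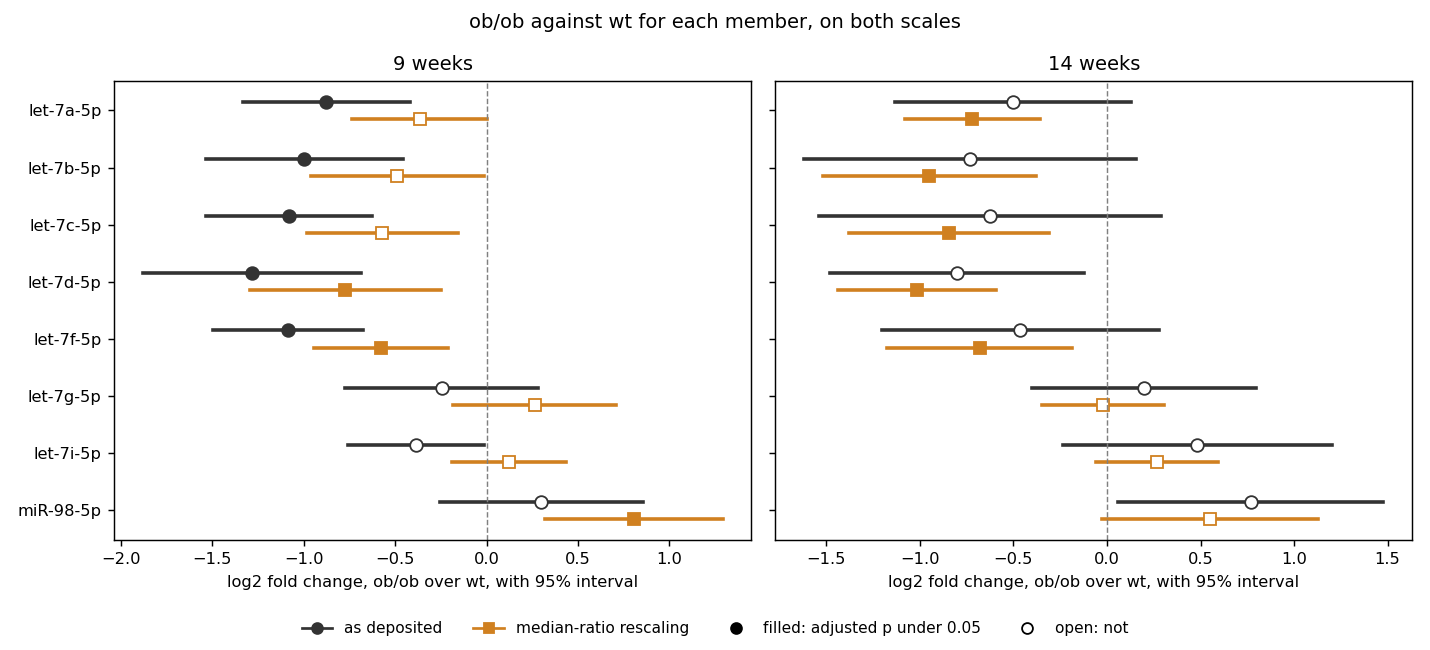
log2 fold change (ob/ob over wt) of each member at 9 weeks (left) and 14 weeks (right), with the 95% interval (line), on the deposited scale (circles) and after median-ratio rescaling (squares); filled symbols have a limma adjusted p under 0.05. let-7a, let-7b, let-7c, let-7d and let-7f lie below 0 at both ages on both scales, while let-7g and let-7i change sign between scales or ages and miR-98 lies above 0.

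At 14 weeks none of the 8 members was called on the deposited scale, where 15.2% of the 171 miRNAs tested were (26 in either direction). On that scale 2 members had an unadjusted limma p under 0.05, as did 56 of the 171 miRNAs tested. After rescaling, the same 5 members that were lower at 9 weeks on the deposited scale were called lower at 14 weeks, at 49.4% to 62.4% of the wt level, against 12.4% of the 169 miRNAs tested. The median log2 fold change of the members was -0.48 on the deposited scale, against 0.20 over all tested, and -0.70 after rescaling, against 0.00. The first wt replicate bore on this difference between the scales. Without it, let-7a-5p, let-7c-5p, let-7d-5p and let-7f-5p were called lower on the deposited scale as well (limma adjusted p of 0.0208, 0.0430, 0.0180 and 0.0375), against 11.9% of the 177 miRNAs tested.

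let-7d-5p had 1311, 773, 1034 and 744 RPM in ob/ob at 14 weeks, against 1059, 1791, 2153 and 1755 RPM in wt. The genotypes overlapped through the first wt replicate, whose 1059 RPM lay below 1 ob/ob library. The log2 fold change was -0.80 ± 0.30 on the deposited scale (SE, limma adjusted p = 0.104) and -1.02 ± 0.19 after rescaling (SE, limma adjusted p = 0.0051). let-7a-5p had 5369.8, 3803, 4996 and 3902 RPM in ob/ob, against 3996, 6465, 7403 and 8388 RPM in wt, and again only the first wt replicate fell within the ob/ob range. Its log2 fold change was -0.50 ± 0.28 as deposited (SE, limma adjusted p = 0.264) and -0.72 ± 0.16 after rescaling (SE, limma adjusted p = 0.0104). The rescaled calls of let-7a-5p and let-7d-5p held in each of the 8 refits that left out 1 library, with adjusted p up to 0.0403.

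let-7f-5p had 21367, 16281, 18677 and 19559 RPM in ob/ob at 14 weeks, against 14325, 23971, 30004 and 44440.3 RPM in wt. The first wt replicate lay below the ob/ob libraries and the other 3 above them. The wt libraries spread about their mean of 28185 RPM with an SD of 12615 RPM, against an SD of 2114 RPM in ob/ob. After rescaling the log2 fold change was -0.68 ± 0.22 (SE, limma adjusted p = 0.0463), a call that remained in 3 of the 8 refits. let-7c-5p had 6583, 5142, 4568 and 2642 RPM in ob/ob, against 3319, 7498, 9882 and 9386 RPM in wt. let-7b-5p had 539, 371, 347 and 203 RPM in ob/ob, against 320.4, 556, 802 and 753 RPM in wt. Both overlapped between the genotypes through the first wt replicate. The fourth ob/ob replicate was the lowest library of that age for let-7b-5p, let-7c-5p and let-7d-5p. After rescaling, let-7c-5p was at -0.84 ± 0.24 (SE, limma adjusted p = 0.0307) and let-7b-5p at -0.95 ± 0.25 (SE, limma adjusted p = 0.0230), and each call remained in 4 of the 8 refits.

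let-7i-5p had 4524, 4596, 4487 and 3930.0 RPM in ob/ob at 14 weeks, against 1605, 3574, 3936 and 4243 RPM in wt. 3 of its 4 ob/ob libraries lay above every wt library. Its log2 fold change was 0.48 ± 0.32 as deposited (SE, limma adjusted p = 0.350) and 0.27 ± 0.14 after rescaling (SE, limma adjusted p = 0.220), with a rescaled 95% confidence interval of -0.06 to 0.59. let-7g-5p had 2575, 2396, 2763 and 2262 RPM in ob/ob, against 1388, 2314, 2347 and 2968 RPM in wt, with overlap. Its log2 fold change was 0.20 ± 0.27 as deposited and -0.02 ± 0.15 after rescaling (SE, limma adjusted p = 0.693 and 0.930). miR-98-5p had 438, 434, 754 and 673 RPM in ob/ob, against 217, 373, 342 and 411 RPM in wt. It was the 1 member without overlap on the deposited scale, lying higher in ob/ob, as did 22.2% of all miRNAs tested. Its log2 fold change was 0.77 ± 0.32 as deposited (SE, limma adjusted p = 0.120) and 0.55 ± 0.25 after rescaling (SE, limma adjusted p = 0.151).

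The lanes named in the labels split the 14-week libraries evenly, with replicates 1 and 2 of each genotype in lane 1 and replicates 3 and 4 in lane 2. In lane 2 alone the same 5 members were called lower and miR-98-5p higher on the deposited scale (adjusted p between 0.0348 and 0.0481 by limma), against 15.1% and 13.4% of the 179 miRNAs tested. The largest of these changes was that of let-7b-5p, at -1.55 ± 0.32 (SE). In lane 1 alone, which holds the first wt replicate, no member was called, and the estimates of let-7b-5p, let-7c-5p and let-7f-5p were 0.08, 0.22 and 0.01. In that lane 0.578% of the 173 miRNAs tested were called (1 of 173), and the median over all tested was 0.54. The 9-week libraries were all in lane 2.

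**Figure D3:**
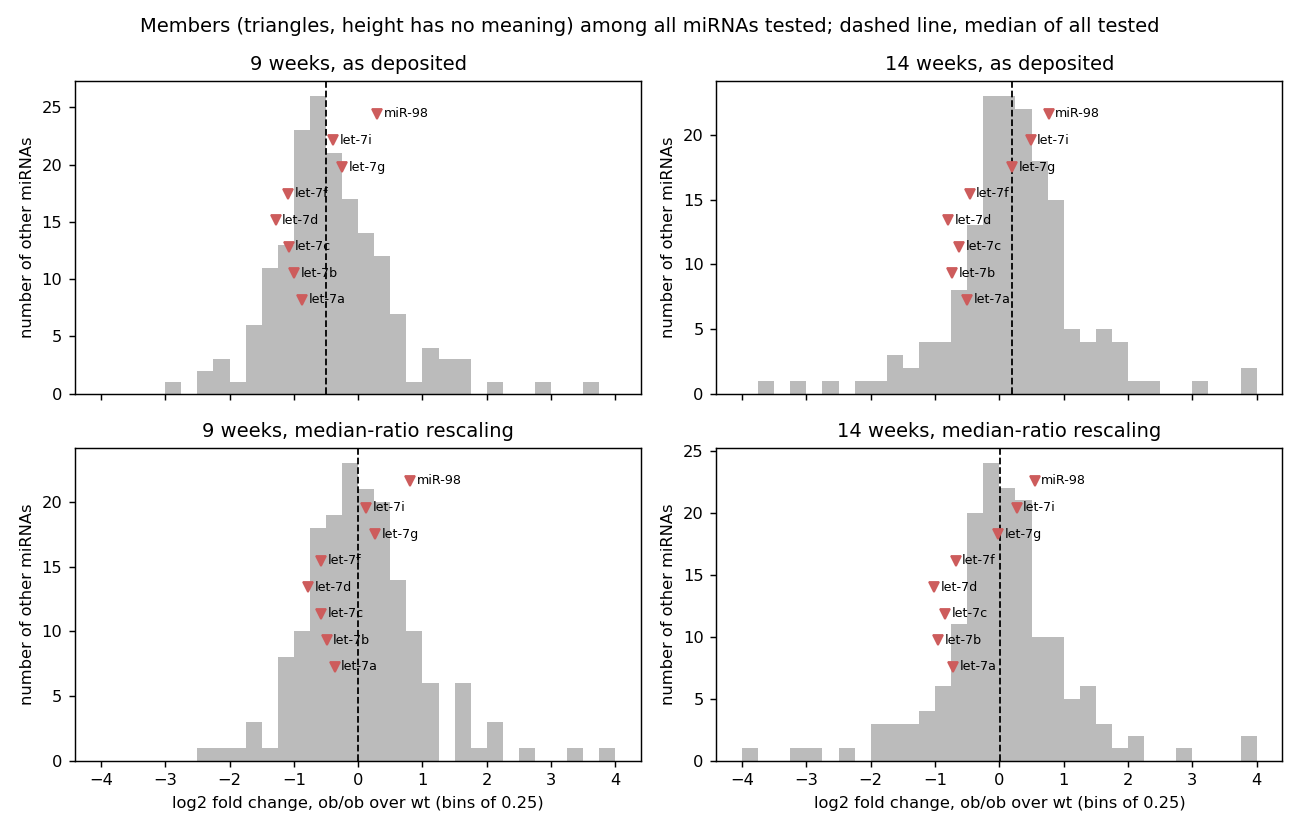
Distribution of the log2 fold change (ob/ob over wt, bins of 0.25) over the other miRNAs tested (grey) at 9 weeks (left) and 14 weeks (right), as deposited (top) and after median-ratio rescaling (bottom), with the members as triangles and the median of all tested as a dashed line. Values beyond 4 or -4 are drawn in the end bins. In each panel let-7a, let-7b, let-7c, let-7d and let-7f lie left of the median and miR-98 to the right of it.

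Taken as a share of the listed miRNAs, a quantity that does not depend on how each library was scaled, the family as a whole was lower in ob/ob at both ages. At 9 weeks it made up 12.9%, 14.2% and 10.7% in ob/ob, against 17.1%, 17.4%, 17.3% and 17.6% in wt. At 14 weeks it made up 13.4%, 10.3%, 11.3% and 12.4% in ob/ob, against 17.8%, 14.7%, 17.1% and 20.4% in wt. The genotypes did not overlap at either age, and the first wt replicate of 14 weeks, which was low in RPM, was within the wt range by this measure. The means were 12.6% ± 1.75 in ob/ob (SD, n = 3) and 17.4% ± 0.227 in wt (SD, n = 4) at 9 weeks, and 11.8% ± 1.32 in ob/ob and 17.5% ± 2.38 in wt at 14 weeks (SD, n = 4 each). In RPM the family sum was 30544 ± 4585 in ob/ob and 58387 ± 5128 in wt at 9 weeks, and 37010.3 ± 4194 in ob/ob and 50496 ± 19343 in wt at 14 weeks. No test was applied to these sums, since they are scores over chosen members. Member by member, as a share of the listed miRNAs, let-7d-5p and let-7f-5p lay lower and miR-98-5p higher in ob/ob without overlap at 9 weeks, against 17.9% and 19.0% of all miRNAs tested. At 14 weeks let-7a-5p, let-7b-5p, let-7c-5p, let-7d-5p and let-7f-5p lay lower and let-7i-5p higher without overlap, against 12.9% and 14.6%.

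**Figure D4:**
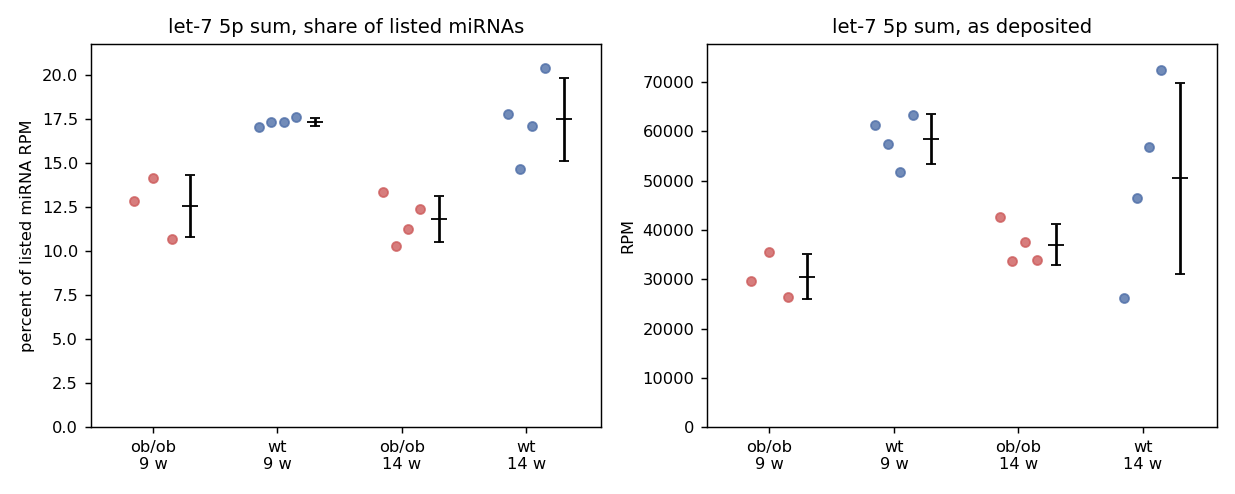
Sum of the 8 let-7 members in each library (points; ob/ob red, wt blue) as a percentage of the listed miRNAs (left) and in RPM (right), with group mean (tick) and SD (bar), n = 3 for ob/ob at 9 weeks and n = 4 for the other groups. The share lies between 10.3% and 14.2% in ob/ob and between 14.7% and 20.4% in wt, while in RPM the first wt replicate of 14 weeks falls below the ob/ob libraries of that age.

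The make-up of the family also differed. let-7i-5p made up 9.90%, 8.82% and 11.8% of the family sum in ob/ob at 9 weeks, against 7.57%, 6.56%, 6.65% and 6.77% in wt. At 14 weeks it made up 10.6%, 13.6%, 11.9% and 11.6% in ob/ob, against 6.12%, 7.68%, 6.92% and 5.86% in wt. The lowest ob/ob library was above the highest wt library at both ages. let-7g-5p made up 7.45%, 7.14% and 6.41% in ob/ob, against 5.27%, 3.66%, 4.02% and 4.47% in wt at 9 weeks. At 14 weeks it made up 6.03%, 7.09%, 7.34% and 6.67% in ob/ob, against 5.29%, 4.97%, 4.13% and 4.10% in wt. miR-98-5p averaged 1.50% ± 0.131 in ob/ob (SD, n = 3) and 0.644% ± 0.149 in wt (SD, n = 4) at 9 weeks, and 1.57% ± 0.496 in ob/ob and 0.700% ± 0.134 in wt at 14 weeks (SD, n = 4 each). let-7g-5p and miR-98-5p likewise did not overlap at either age, and the other 5 members overlapped at both. On the same ratio 35.8% of all miRNAs tested lay higher in ob/ob without overlap at 9 weeks and 31.0% at 14 weeks. The 3 of 8 members are near those shares. The shares of the members are parts of the same whole, so a fall of some raises the shares of the others.

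Because let-7f-5p was the largest part of that sum, the shares were also taken without it. let-7g-5p, let-7i-5p and miR-98-5p again lay higher in ob/ob without overlap at both ages, 3 of 7 members, against 25.7% of all miRNAs tested at 9 weeks and 30.4% at 14 weeks on the same ratio. let-7i-5p made up 24.6% ± 2.76 in ob/ob and 14.8% ± 0.998 in wt at 14 weeks (SD, n = 4 each). At that age let-7a-5p and let-7d-5p lay lower in ob/ob without overlap, against 8.19% of all tested. let-7a-5p made up 25.1% ± 2.41 in ob/ob and 29.96% ± 2.62 in wt, and let-7d-5p 5.30% ± 0.716 in ob/ob and 7.78% ± 1.09 in wt (SD, n = 4 each). The set of members that lie lower within the family therefore depends on whether let-7f-5p is counted in the sum.

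On the log2 scale with each library divided by its let-7 sum, a scaling added after the data were seen, let-7g-5p (0.69 ± 0.15), let-7i-5p (0.56 ± 0.14) and miR-98-5p (1.24 ± 0.20) were higher in ob/ob at 9 weeks (SE, limma adjusted p of 0.0130, 0.0189 and 0.0046). At 14 weeks they were higher by 0.56 ± 0.19, 0.85 ± 0.19 and 1.13 ± 0.29 (SE, limma adjusted p of 0.0436, 0.0073 and 0.0116). Called higher on this scale were 27.7% of the 177 miRNAs tested at 9 weeks and 32.4% of the 170 at 14 weeks, and 3 of 8 members is near those shares. The comparison does not set these 3 members apart from other miRNAs. The members are also parts of the sum they are divided by, and the mean of that sum was lower in ob/ob at both ages. A member that falls less than the sum therefore comes out higher on this scale. Without overlap on this ratio and higher in ob/ob were 35.8% of all miRNAs tested at 9 weeks and 31.0% at 14 weeks. The lower estimates were those of let-7a-5p, let-7b-5p, let-7c-5p, let-7d-5p and let-7f-5p. None of them was called lower on this scale at either age, and let-7a-5p was at 0.0651 at 9 weeks. Each of them has a hairpin in the chromosome 13 or chromosome 15 cluster. let-7g-5p and let-7i-5p each come from a hairpin that lies apart from the others. Whether the place of a hairpin bears on these estimates was not tested. miR-98-5p is encoded 785 bases from the second let-7f hairpin in Huwe1, and let-7f-5p, made there and on chromosome 13, was among the members with lower estimates. The values of let-7f-5p cannot be divided between these places, so they do not show whether the hairpins in Huwe1 differ.

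**Figure D5:**
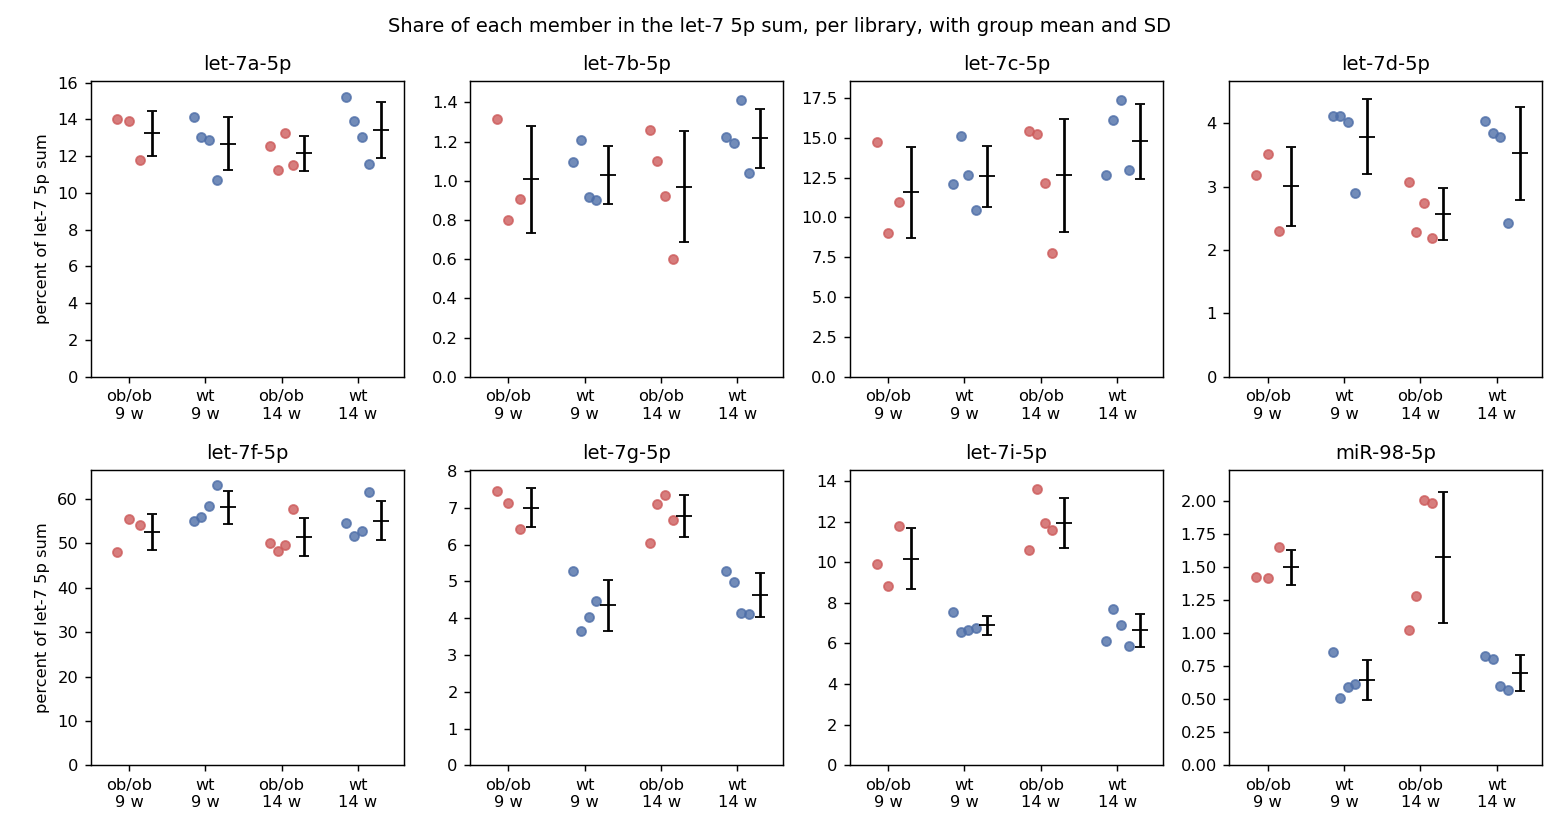
Share of each member in the let-7 sum of its library (points; ob/ob red, wt blue), with group mean (tick) and SD (bar), n = 3 for ob/ob at 9 weeks and n = 4 for the other groups, each panel on its own axis from 0. For let-7g, let-7i and miR-98 the ob/ob points lie above the wt points at both ages, and for the other 5 members they overlap.

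Whether the ob/ob effect differed between the ages was tested as the interaction of genotype and age over all 15 libraries. None of the 8 members was called on the deposited scale or after rescaling (limma), and neither was any of the 187 or 188 miRNAs tested (0% called), with 48 and 17 of them at an unadjusted p under 0.05. The interaction estimates of the members, the log2 fold change at 14 weeks minus that at 9 weeks, lay between 0.26 and 0.87 as deposited, against a median of 0.68 over all tested, and between -0.46 and 0.15 after rescaling, against a median of -0.02. let-7i-5p had the largest estimate as deposited, 0.87 ± 0.38 (SE, limma adjusted p = 0.174), and was at 0.15 ± 0.16 after rescaling (SE, limma adjusted p = 0.714). The 95% confidence intervals of the members reached from -0.78 to 1.68 as deposited. Without the first wt replicate of 14 weeks the members' estimates lay between -0.01 and 0.55 as deposited, against a median of 0.43. None of the members was called in that fit either.

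Of the 3p arms of the same hairpins, 10 of 11 were listed and 5 were tested. let-7d-3p, the most abundant of the 5, was called lower at both ages on both scales. It had 224, 282 and 147 RPM in ob/ob at 9 weeks, against 639, 814, 652 and 683 RPM in wt, and 317, 141, 173 and 155 RPM in ob/ob at 14 weeks, against 405, 517, 679.7 and 607 RPM in wt. The genotypes did not overlap. Its rescaled log2 fold change was -1.21 ± 0.23 at 9 weeks and -1.76 ± 0.27 at 14 weeks (SE). The ratio of let-7d-5p to let-7d-3p in the same library, which no scaling affects, was 4.27 ± 0.139 in ob/ob (SD, n = 3) and 3.18 ± 0.547 in wt (SD, n = 4) at 9 weeks, and 5.10 ± 0.803 in ob/ob and 3.03 ± 0.364 in wt at 14 weeks (SD, n = 4 each). It ranged from 4.14 to 5.98 in ob/ob over both ages and from 2.61 to 3.94 in wt. The same ratio was taken for the let-7i and miR-98 hairpins in libraries with at least 30 reads of the 3p arm, which left out 1 wt library of 14 weeks. For let-7i it was 1762 to 2251 in ob/ob and 743 to 1677 in wt at 9 weeks, without overlap, and 1081 to 1647 in ob/ob and 1025 to 1502 in wt at 14 weeks (n = 3 in wt), with overlap. For miR-98 it was 125 to 168 in ob/ob and 51.9 to 112 in wt at 9 weeks, without overlap, and 116 to 244 in ob/ob and 84.5 to 122 in wt at 14 weeks (n = 3 in wt), with overlap. let-7a-1-3p and let-7i-3p were called lower at 9 weeks as deposited and in no other of these comparisons. With let-7d-3p, 3 of the 5 arms tested were called lower there, against 32.4% of all miRNAs tested. The miR-100 and miR-125b arms and the miR-99a arms, encoded in the same clusters as let-7a-2 and let-7c-1, were tested in full (7 of 7). miR-125b-5p, known for effects on macrophage activation, and miR-100-3p were called lower at 9 weeks as deposited. These are 2 of 7 neighbours, against 32.4% of all miRNAs tested, and no neighbour was called after rescaling. At 14 weeks no neighbour was called as deposited. After rescaling miR-125b-5p was called lower (-1.06 ± 0.34, SE, limma adjusted p = 0.0460), against 12.4% of all miRNAs tested.

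The non-member miRNAs whose rescaled profile over the 15 libraries was nearest to the mean profile of the members were miR-340-3p, miR-320-3p, miR-532-5p, miR-30e-3p and miR-511-3p, out of 103 candidates. Their root mean square differences from it were 0.180, 0.187, 0.187, 0.201 and 0.201 on the log2 scale. None of the 5 was called between the genotypes after rescaling at either age. Their smallest limma adjusted p was 0.0860, for miR-511-3p at 9 weeks. Among the members themselves let-7a-5p was nearest to that mean at 0.145 and miR-98-5p farthest at 0.566, so that these 5 miRNAs lay closer to it than each member but let-7a-5p. The profiles share libraries and depth, and the likeness is a description.

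Some marker miRNAs of other cells differed with genotype. Hepatocyte markers (miR-122, miR-192 and miR-194, 4 of 4 arms listed) summed to 3966 to 5524 RPM in ob/ob and 1100 to 2222 RPM in wt at 9 weeks, and to 3169 to 6899 RPM in ob/ob and 1099 to 1689 RPM in wt at 14 weeks. Most of that sum was miR-192-5p, which averaged 4494 RPM in ob/ob and 1556 RPM in wt at 9 weeks and was called higher at both ages on both scales. miR-122-5p, the marker most particular to hepatocytes, was at 113 to 228 RPM in ob/ob and 18.4 to 73.1 RPM in wt at 9 weeks (log2 fold change 2.02, limma adjusted p = 0.0244). At 14 weeks it was at 36.9 to 79.4 RPM in ob/ob and 15.2 to 101 RPM in wt, with overlap (limma adjusted p = 0.551). The 1 of 4 erythroid markers measured, miR-144-5p, was at 14.7 to 21.7 RPM in ob/ob and 0.522 to 1.49 RPM in wt at 9 weeks, and at 11.6 to 32.4 RPM in ob/ob and 0.331 to 0.974 RPM in wt at 14 weeks. Macrophage markers (miR-142a and miR-511 arms, 3 of 5 measured) summed to 2139 to 3272 RPM in ob/ob and 3144 to 4465 RPM in wt at 9 weeks. At 14 weeks they summed to 2386 to 4026 RPM in ob/ob and 1833 to 2917 RPM in wt. Most of that sum was miR-142a-5p, which was not called at 9 weeks as deposited (-0.51, limma adjusted p = 0.0895). miR-142a-3p ranged from 0 to 0.150 RPM in ob/ob and from 0 to 0.149 RPM in wt at 9 weeks. At 14 weeks it ranged from 0.159 to 18.6 RPM in ob/ob and from 0 to 0.0844 RPM in wt. miR-511-3p, made from an intron of the mannose receptor gene, was at 53.6 to 101 RPM in ob/ob and 145 to 169 RPM in wt at 9 weeks, without overlap. It was called lower there as deposited (-1.07 ± 0.24, SE, limma adjusted p = 0.0098), and not after rescaling (-0.56, limma adjusted p = 0.0860) or at 14 weeks on either scale.

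Of 4 stellate cell markers tested, miR-199a-3p (-1.55, limma adjusted p = 0.0053) and miR-214-3p (-0.91, limma adjusted p = 0.0379) were called lower at 9 weeks as deposited, and miR-199a-3p after rescaling (-1.04, limma adjusted p = 0.0371). At 14 weeks none was called as deposited, and miR-143-3p was called higher after rescaling (1.05, limma adjusted p = 0.0490). Of 4 biliary and epithelial markers tested, miR-141-3p was called higher at 9 weeks after rescaling (0.91, limma adjusted p = 0.0438) and at 14 weeks on both scales (1.20 and 0.99). The endothelial pair of miR-126a arms reached 10833 to 63153 RPM over all libraries, and miR-126a-3p was called lower at 9 weeks as deposited (-0.94, limma adjusted p = 0.0230) and in no other of these comparisons. At 14 weeks miR-126a-3p ranged from 0 to 3733 RPM in ob/ob, with a median of 2204 RPM. Its estimate as deposited was imprecise there, at -3.03 ± 2.95 (SE). The lymphocyte marker miR-150-5p was called in none of them, with a smallest limma adjusted p of 0.150. let-7 miRNAs are made in most differentiated cell types, and the part of cell make-up or depth in the let-7 differences was not tested.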

How the data were processed

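Small RNA of Kupffer cells was sequenced with TruSeq Small RNA libraries on an Illumina HiSeq, per the labels' protocols. The submitters' processing notes name bcl2fastq, cutadapt, GRCm38.p5 and mm10; the sources used here give no aligner, counting tool or miRNA annotation. The authors deposited 1 table per age, taken as RPM (reads per 1000000 reads) from the values, since no unit is stated. The labels do not say whether replicates are separate animals; the p-values cover only the spread among these libraries, which may be technical.

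The 8 members were read by name in both tables; the members and lists were chosen with earlier results of these data known. Each age was fitted alone on log2(RPM + 0.5) in limma 3.58.1 under R 4.3.3, with trended and robust variance moderation, over miRNAs with at least 1 RPM in at least 3 libraries at 9 weeks or 4 at 14 weeks, with Benjamini-Hochberg adjustment over all tested and a threshold of 0.05. The interaction used all 15 libraries. Fold changes are on that log2 scale, which understates rare miRNAs. Median-ratio rescaling was based on miRNAs above 0 in each library and averaging 5 RPM or more. 14 and 9 weeks were not compared within a genotype, since the tables are separate. Although values were whole multiples of 1 read, no count model was used, since the deposited unit is not counts. Named were all members and, from set lists, the 3p arms, the cluster neighbours and the 5 nearest profiles. Sequences and coordinates are RefSeq's (GRCm38.p6), checked against GENCODE vM21. The test was checked on normal log2 values simulated from the rescaled data, and the deposited scale was not simulated. Of changes of 1 on the log2 scale, it recovered 74.75% at 9 weeks, 71.5% at 14 weeks and 52.25% for the interaction.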

Additional observations from a re-analysis of the deposited data

Results flagged for a closer look

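A sample that stands far from the other 3 of its group was looked for in 54 groups of member values and shares, and chance gives such a sample in about 1 in 20 groups. There were 3. The share of let-7d-5p in the family sum was 2.90% in the fourth wt replicate of 9 weeks, against 4.01% to 4.12% in the other wt libraries of that age. It was 2.43% in the fourth wt replicate of 14 weeks, against 3.79% to 4.04% in the others. let-7i-5p was at 3930.0 RPM in the fourth ob/ob replicate of 14 weeks, against 4487 to 4596 RPM in the other 3.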

How the results depend on the processing

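At 9 weeks the 5 calls of the deposited scale held with a pseudocount of 0.1 or 2, other filters, and limma without trend and robust fitting. The main fit on the deposited scale called 67 of 179 miRNAs in all. The pseudocounts of 0.1 and 2 called 65 and 66 of 179. Without a filter 71 of 248 were called, with a mean of at least 10 RPM 50 of 116, and without trend and robust fitting 69 of 179. The count of members called was 3 after median-ratio rescaling (38 of 177 in all). It was 2 divided by the sum of listed miRNAs (35 of 177) and 3 divided by the let-7 sum (55 of 177). With the GC correction and rescaling it was 4, all lower (39 of 157). When 1 library was left out it ranged from 0 to 5. As deposited it was then 5 each time, with 53 of 174 to 71 of 186 miRNAs called in all. Rescaled it was then 0 to 3, with 16 of 172 to 38 of 173 called in all. At 14 weeks the count was 0 as deposited (26 of 171 in all) and 5 after rescaling (47 of 169). It was 5 divided by the sum of listed miRNAs (48 of 170) and 5 with the GC correction and rescaling (36 of 151). Divided by the let-7 sum it was 3 (61 of 170), and in lane 2 alone 6 (51 of 179). When 1 library of 14 weeks was left out it ranged from 0 to 5. Rescaled it was then 2 to 5, with 28 of 172 to 55 of 178 miRNAs called in all. As deposited it was then 4 without the first wt replicate (46 of 177) and 0 otherwise (13 of 176 to 38 of 178).

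Estimates that turned sign were mostly of let-7g-5p and let-7i-5p. At 9 weeks let-7g-5p went to 0.26 rescaled, 0.22 by the listed sum, 0.0441 with the GC correction and 0.69 by the let-7 sum, with -0.38 to 0.40 when 1 library was left out. let-7i-5p went to 0.12, 0.0812, 0.00082 and 0.56 in the same settings, with -0.46 to 0.18, and let-7a-5p to 0.0651 by the let-7 sum. At 14 weeks let-7g-5p went to -0.0214 rescaled, -0.0015 by the listed sum, -0.40 with the GC correction and -0.0781 in lane 2 alone, with -0.10 to 0.35 when 1 library was left out. miR-98-5p went to -0.00017 with the GC correction. In lane 1 alone let-7b-5p, let-7c-5p and let-7f-5p were at 0.0831, 0.22 and 0.0093. The cause was not tested.

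Whether the replicate numbers pair the samples could not be told. Residuals of same-numbered libraries correlated between -0.14 and 0.28 at 9 weeks and between -0.24 and 0.20 at 14 weeks. With so few libraries per group such correlations cannot decide it. With the replicate block 3 members were called at 9 weeks (32 of 179 miRNAs in all) and 0 with rescaling (13 of 177), and 0 at 14 weeks (22 of 171) and 3 with rescaling (36 of 169). With block and rescaling let-7g-5p was at 0.33 and let-7i-5p at 0.16 at 9 weeks, and let-7g-5p at -0.0214 at 14 weeks. Whether depth shifts the members' values was not tested.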
